A study of Mus musculus with 6 samples.

Results

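Histone genes were followed in BV2, an immortalised line of mouse microglia, after knockdown of Gch1, the gene of the enzyme GTP cyclohydrolase I. The set held 64 replication-dependent histone genes, 8 histone variants and linkers, and 4 factors that make or process histone mRNA. These 76 genes, of 12327 in the table, were taken by symbol. Symbols beginning with Hist1h, Hist2h, Hist3h or Hist4h gave the replication-dependent genes (5 of H1, 17 of H2A, 17 of H2B, 12 of H3 and 13 of H4). Symbols beginning with H2af, H3f3 or H1f gave the variants H2afj, H2afv, H2afx, H2afy, H2afz, H3f3a and H3f3b and the linker H1f0. Slbp, Npat, Lsm10 and Lsm11 were the factors. A further 19 annotated genes met the symbol rule and were not analysed here, among them the protein-coding Hist1h1a, H1fx and H2afy2. Genes of the table were taken by symbol without a threshold on their values, and only genes with a row could enter. The choice was made with earlier results of these data known. All 76 genes passed the filter on low values, so every one of them is counted below.

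Both groups came from 1 BV2 subline grown in high-glucose medium with serum, and each was represented by 3 libraries of RNA depleted of ribosomal RNA. The GCH1-KD libraries came from cells carrying an adenovirus against GCH1 (Ad-shGCH1) for 48 hours, and the negative control libraries are labelled Ad-NC. The series text calls the control cells wild type, so it is unclear whether they received a virus. Separate cultures are not mentioned in the labels, so p-values take in the variation from library to library alone, and that may be technical. The unit is not stated, and values are treated as FPKM, fragments scaled by transcript length and by library size. Levels per length can be compared between genes only as far as the annotated lengths and the division of shared reads are right.

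Gch1 stood at 3.20, 2.93 and 3.43 FPKM in the GCH1-KD libraries, against 6.89, 7.22 and 7.23 FPKM in the negative control libraries. It fell by 0.96 on the log2 scale (limma, adjusted p = 0.0054), and the groups did not overlap. Of 12 microglial markers, 11 were measured. Cd68 (448 to 498 FPKM over the 6 libraries) and Tyrobp were high, Tmem119 stayed between 0.489 and 0.689 FPKM, and Cx3cr1 was under 0.6 FPKM in 5 libraries and 3.16 FPKM in negative control 3. The microglial Trem2 was at 21.4 to 22.7 FPKM and Aif1 at 1.73 to 2.80 FPKM. No neuronal marker of 5 was in the table, and the marker lists of astrocytes, oligodendrocytes, endothelium, fibroblasts and lymphocytes had 1 or 2 genes each in it. Of these, the astrocyte marker Aldoc (24.7 to 28.6 FPKM) and the endothelial Flt1 (21.3 to 23.5 FPKM) were at levels like that of Trem2. Cnp, Vwf, Acta2 and Lck were lower. The step of the FPKM values corresponded to 7.61, 6.86 and 6.32 Gb of aligned sequence in GCH1-KD libraries 1, 2 and 3, against 5.58, 5.25 and 5.52 Gb in negative control libraries 1, 2 and 3. At that depth the median replication-dependent gene was covered 407 to 587 times per base.

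Replication-dependent histone genes supply the bulk of the nucleosome proteins when DNA is copied, and their mRNAs rise in S phase. Most have no introns, though the 1156-base annotated transcript of Hist1h2bc spans chr13:23684199-23692908. The mRNAs of the class typically carry no poly(A) tail. They end just after a conserved stem-loop that the stem-loop binding protein SLBP recognises. The U7 small nuclear ribonucleoprotein, which contains LSM10 and LSM11, takes part in cutting the transcript there. NPAT is the coactivator that drives these genes from histone locus bodies. Variant histones such as H2A.Z and H3.3 are made outside S phase too, from ordinary polyadenylated mRNAs. Ribosomal RNA depletion keeps both kinds of mRNA, whereas poly(A) selection would lose most of the first. In bulk RNA, fewer cells in S phase and less histone mRNA per cell cannot be told apart.

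The sequence that separates both classes is shown first. The stem-loop was searched on the sense strand of the GENCODE M21 transcripts as GGNNCTNTTNAGNNCC, where the outer 6 letters on each side form the stem. It was present in 43 of 64 replication-dependent genes (67.2%), in 1 of 8 variants and linkers (H2afx, 12.5%), in none of the 4 factors and in 0.589% of the 12224 other genes. A poly(A) signal (AATAAA or ATTAAA) lay in the last 60 bases of a transcript in 16 replication-dependent genes (25.0%), in all 8 variants and linkers, in 2 factors (Slbp and Lsm11) and in 83.4% of the other genes. H2afx held both. In 42 of the 43 replication-dependent genes the motif lay in a single-exon model, and there it began 21 to 58 bases after the stop codon (median 31.5). A total of 6 versions of the motif occurred in these 42 genes, and H2afx had a version of its own. One gene of each is given below on GRCm38, with up to 5 flanking bases in lower case and the motif in capitals.
Hist2h2aa2, chr3:96239784-96239799, minus strand, the version of 24 genes: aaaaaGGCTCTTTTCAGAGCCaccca
Hist1h4f, chr13:23551291-23551306, minus strand, the version of 7 genes: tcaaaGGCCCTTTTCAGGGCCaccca
Hist1h2bb, chr13:23747203-23747218, plus strand, the version of 6 genes: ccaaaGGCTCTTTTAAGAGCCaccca
Hist1h4i, chr13:22040966-22040981, minus strand, the version of 2 genes: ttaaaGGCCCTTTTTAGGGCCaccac
Hist1h4b, chr13:23757366-23757381, plus strand, the version of 2 genes: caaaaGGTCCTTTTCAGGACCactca
Hist2h2ac, chr3:96220418-96220433, minus strand, the version of 1 gene: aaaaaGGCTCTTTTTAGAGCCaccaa
H2afx, chr9:44335240-44335255, plus strand: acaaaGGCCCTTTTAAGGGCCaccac

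Among the replication-dependent genes, the stems sorted by histone family. All 11 H4 genes with a placed motif had a stem opening with GGCC or GGTC, and none of the 31 genes of H1, H2A, H2B and H3 did. All 31 opened with GGCT. The H2A variant H2afx was an exception to this sorting, since its stem opens with GGCC. The 24-gene version occurred in H1, H2A, H2B and H3 genes alike. Of the 21 replication-dependent genes without the motif, 20 had a single-exon model with a stop codon. In 16 of those the model ended at most 2 bases after the stop codon, before the place where the stem-loop stood in the other genes.

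The promoters of these families differed in the short motifs they held. In RefSeq promoters (GRCm38.p6, 250 bases before to 50 after the start site, both strands searched), CCAAT was found in 47 of 47 promoters of H1, H2A, H2B and H3 genes, against 3 of 12 of H4 genes and 41.1% of 27025 genes with a promoter. The octamer ATTTGCAT was found in 7 of 15 H2B and 6 of 17 H2A promoters, in no H1, H3 or H4 promoter, and in 1.97% of all. Windows of neighbouring H2A and H2B genes can overlap, so the same match can be counted in both families. TATAAA was found in 32 of the 59 replication-dependent promoters and in 15.7% of all. Of 7 variant or linker promoters, 5 held CCAAT and 1 each held the octamer and TATAAA. None of the 3 motifs contains another, and a match describes letters only. The promoter of Hist1h2bg, the H2B gene with the highest level among those holding all 3 motifs, is printed with the matches in capitals. Counted from the Hist1h2bg start site, CCAAT began at -150 and, on the opposite strand, at -178, the octamer at -59 and TATAAA at -43. The start of the H2A gene Hist1h2ae (chr13:23570517-23571220, minus strand) lies inside this window, and its promoter also holds all 3 motifs.
Hist1h2bg, chr13:23571150-23571449, plus strand: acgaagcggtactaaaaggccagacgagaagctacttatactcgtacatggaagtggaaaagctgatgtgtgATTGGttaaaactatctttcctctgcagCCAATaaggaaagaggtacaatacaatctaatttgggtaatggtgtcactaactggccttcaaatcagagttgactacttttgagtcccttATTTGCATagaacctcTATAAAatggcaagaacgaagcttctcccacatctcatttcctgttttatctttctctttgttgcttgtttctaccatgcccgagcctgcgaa

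The replication-dependent genes were abundant in every library. Together they reached 3958, 5153 and 4771 FPKM in GCH1-KD libraries 1, 2 and 3, against 4670, 4807 and 5157 FPKM in negative control libraries 1, 2 and 3. This was 1.76% to 2.24% of all FPKM in the GCH1-KD libraries and 2.05% to 2.24% in the negative control libraries. The 8 variants and linkers together gave 250.5, 255.7 and 260.5 FPKM in the GCH1-KD libraries, against 265.5, 256.5 and 277.0 FPKM in the negative control libraries. The groups overlapped in both sums. GCH1-KD 1 held the lowest replication-dependent sum, and negative control 3 and GCH1-KD 2 the highest.

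The ratio of the replication-dependent sum to the variant sum was 15.8, 20.2 and 18.3 in GCH1-KD libraries 1, 2 and 3, against 17.6, 18.7 and 18.6 in negative control libraries 1, 2 and 3. The mean was 18.1 ± 2.19 in GCH1-KD and 18.3 ± 0.632 in the negative control (SD, n = 3 each). On the log2 scale the difference was -0.02, with a pooled within-group SD of 0.13. It turned to 0.07 without GCH1-KD 1 and was -0.11 without GCH1-KD 2. The lowest and the highest ratio of all 6 libraries were both GCH1-KD libraries, and all 3 control ratios lay between them.

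**Figure D1:**
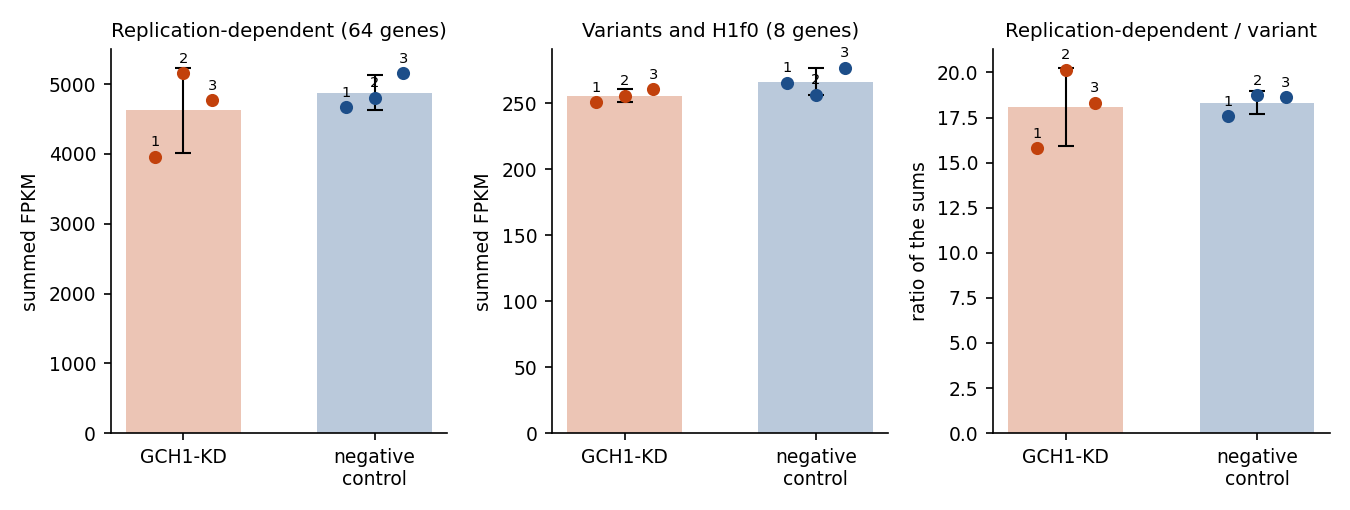
Summed FPKM of the 64 replication-dependent genes, summed FPKM of the 8 variants and linkers, and the ratio of both sums (y axes) in GCH1-KD and negative control libraries. Points are single libraries with their number, bars are means and error bars SD (n = 3). GCH1-KD libraries 1 and 2 hold the lowest and the highest ratio, 15.8 and 20.2, and the negative control ratios lie between them.

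No histone gene was called in the comparison of GCH1-KD with the negative control. Of the 12222 genes fitted with limma, 10 (0.0818%) had a Benjamini-Hochberg adjusted p under 0.05, and none was among the 76. The lowest adjusted p of a member was 0.2923. Of the 64 replication-dependent genes, 51 had a log2 fold change below 0, against 47.0% of all genes, and their median was -0.07, against 0.01 over all genes. Without GCH1-KD 1, 28 of the 64 were below 0 and the median was 0.01. Of the 8 variants and linkers, 6 were below 0 and the median was -0.02, and without GCH1-KD 1 they numbered 3 with a median of 0.01. An unadjusted p under 0.05 was reached by 5 replication-dependent genes, all lower in GCH1-KD, and by 1 variant, which was higher. Over all genes the share was 11.3%, with 4.82% lower and 6.47% higher. The groups did not overlap in the same 6 genes, against 18.4% of all genes, with 8.36% lower and 9.99% higher. The undirected counts of the 76 were below the background shares. The 5 lower genes of 64 were a larger share than the 4.82% at an unadjusted p under 0.05. By non-overlap the same 5 were a smaller share than the 8.36%. Neither share was tested.

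**Figure D2:**
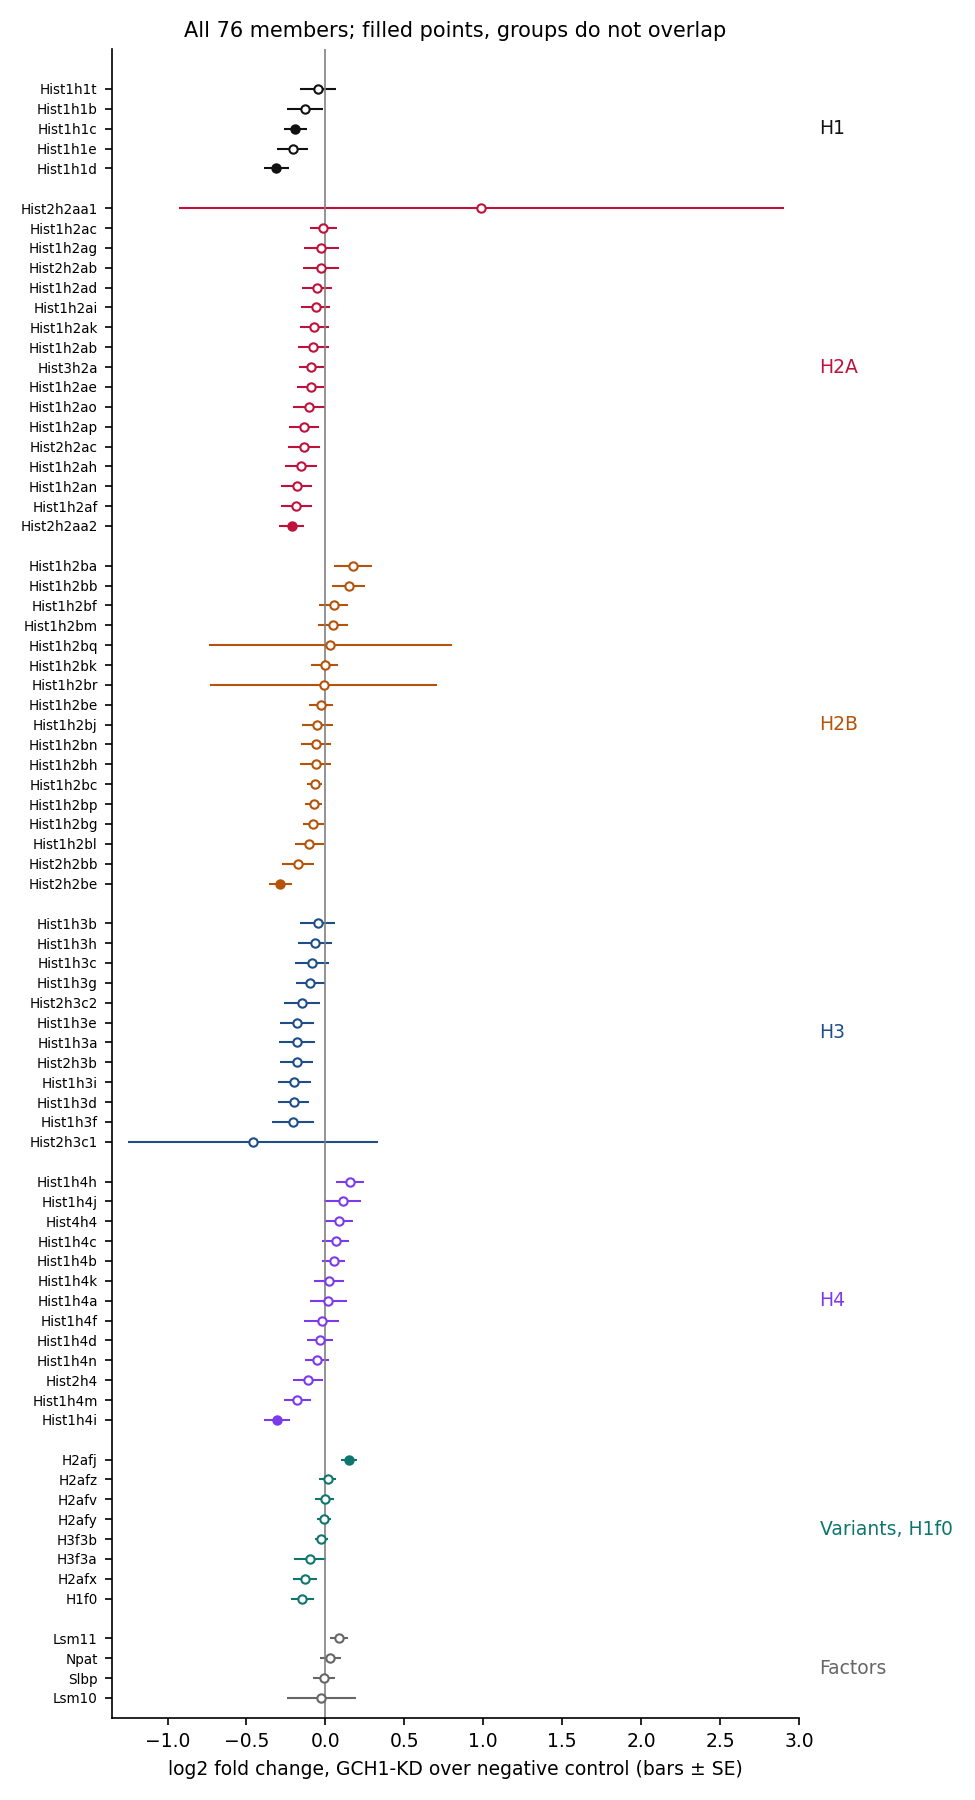
Log2 fold change of GCH1-KD over negative control on log2(FPKM + 1) with its SE (x axis) for all 76 genes, grouped by family (y axis). Filled points mark genes whose groups do not overlap. The wide bars belong to Hist2h2aa1, Hist2h3c1, Hist1h2bq and Hist1h2br, near-identical copies whose values changed between libraries.

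GCH1-KD 1 stood lowest across most of this set. It had the lowest value of the 6 in 52 of the 64 replication-dependent genes, against 16.3% of all genes, and in 5 of the 8 variants and linkers. The highest value came from GCH1-KD 2 in 28 genes and from negative control 3 in 26. The median deviation from each gene's mean was -0.25, 0.11 and 0.00 (log2) in GCH1-KD libraries 1, 2 and 3, against -0.00, 0.03 and 0.12 in negative control libraries 1, 2 and 3. The variants and linkers spanned less, with -0.06, 0.00 and 0.02 in GCH1-KD, against -0.01, 0.02 and 0.04 in the negative control. The SD within the group was larger in GCH1-KD than in the negative control for 56 of the 64 replication-dependent genes and 5 of the 8 variants and linkers, against 44.2% of all genes.

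**Figure D3:**
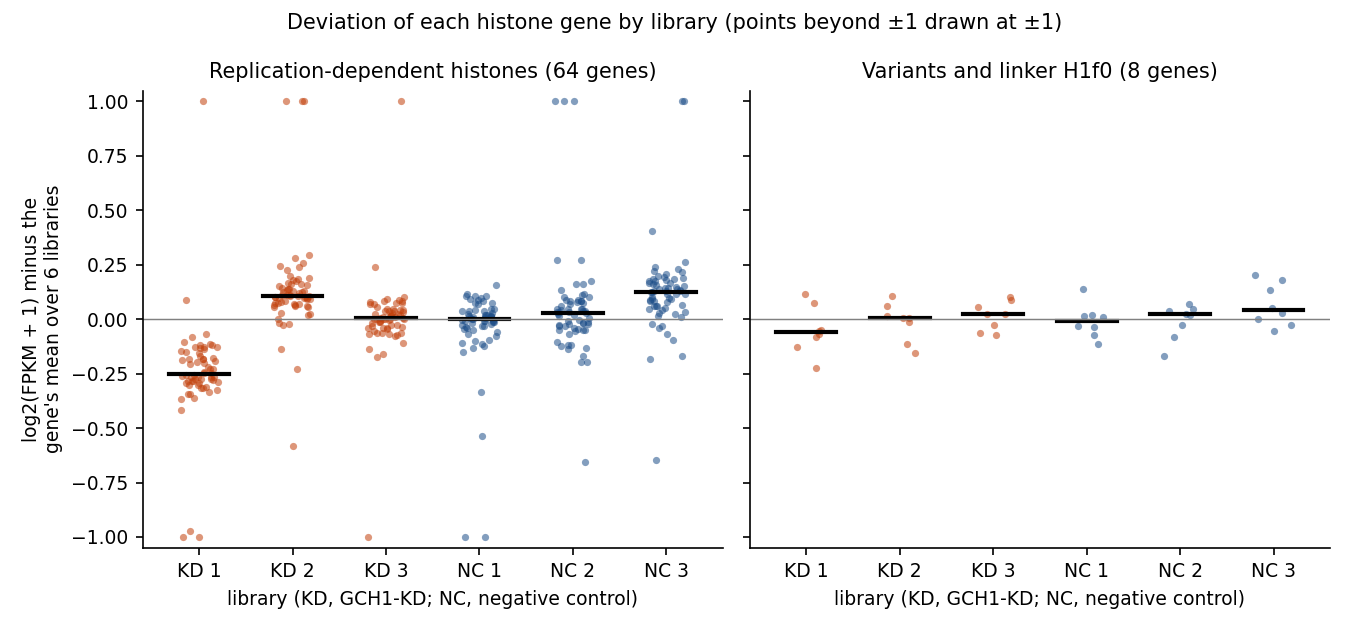
Deviation of log2(FPKM + 1) from the gene's mean over the 6 libraries (y axis) in each library (x axis), for the 64 replication-dependent genes and the 8 variants and linkers. Each point is 1 gene, and the black line is the median. GCH1-KD 1 lies at a median of -0.25 for the replication-dependent genes and -0.06 for the variants and linkers.

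Genes of DNA replication were also mostly lowest in GCH1-KD 1. All 43 genes of an S-phase list, which includes Slbp, were measured. Their median deviation was -0.11, 0.06 and -0.01 (log2) in GCH1-KD libraries 1, 2 and 3, against -0.02, 0.05 and 0.06 in negative control libraries 1, 2 and 3. The rank of the 6 libraries by this median was the same as by the median of the replication-dependent histones, and differed between both sets once the trend on GC content and length was removed. GCH1-KD 1 was the lowest of the 6 in 30 of the 43 genes. None of the list was called in either direction, 35 were below 0, and the median log2 fold change was -0.05, or -0.00 without GCH1-KD 1. Its 4 genes with the smallest p were Pold1 (-0.18 ± 0.06 SE), Pola2 (-0.15 ± 0.06), E2f1 (-0.14 ± 0.06) and Prim2 (-0.13 ± 0.06), which encode subunits of DNA polymerases delta and alpha, an activating E2F factor and a primase subunit. Their limma adjusted p ranged from 0.375 to 0.466. The libraries also differed in how values followed base composition: Spearman's rho of the deviation with transcript GC content across protein-coding genes was -0.35, -0.19 and 0.07 in GCH1-KD libraries 1, 2 and 3, against 0.27, -0.25 and 0.41 in negative control libraries 1, 2 and 3. Replication-dependent transcripts had a median GC content of 58.1%, against 49.8% over all genes. With the trend on GC content and length removed, the median deviation of the replication-dependent genes was -0.21, 0.10 and -0.01 in GCH1-KD libraries 1, 2 and 3, against 0.01, 0.05 and 0.10 in negative control libraries 1, 2 and 3. That of the S-phase genes was -0.12, 0.06 and -0.02 in GCH1-KD, against -0.01, 0.03 and 0.07 in the negative control. GCH1-KD 1 was the lowest in both sets, GCH1-KD 2 the highest for the histones and negative control 3 the highest for the S-phase genes.

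The linker H1 genes, whose proteins bind DNA between nucleosomes, were below control in 5 of 5, though in Hist1h1t by less than the SE. Hist1h1d was at 15.03, 18.9 and 17.8 FPKM in GCH1-KD, against 20.9, 21.6 and 22.0 FPKM in the negative control. Every GCH1-KD library was below every control library, and the log2 fold change was -0.31 ± 0.08 (SE, limma adjusted p = 0.292). The annotated model of Hist1h1d is 7425 bases long and runs 4884 bases past the stem-loop, so its value may take in reads from beyond the H1 mRNA. Values in brackets after a gene below are its log2 fold change and SE from the same fit. Hist1h1c was at 96.3, 113.9 and 116.4 FPKM in GCH1-KD, against 122.7, 119.6 and 129.6 FPKM in the negative control, again without overlap (-0.19 ± 0.07, limma adjusted p = 0.41; -0.11 without GCH1-KD 1). Hist1h1e was at 75.1, 92.8 and 92.7 FPKM in GCH1-KD, against 100.2, 91.0 and 109.2 FPKM in the negative control. Hist1h1b was at 64.9, 83.1 and 74.2 FPKM in GCH1-KD, against 79.1, 71.6 and 92.7 FPKM in the negative control. In both of these genes negative control 2 lay below GCH1-KD 2, so the groups overlapped. The testis-enriched Hist1h1t was at 0.631 ± 0.060 FPKM in GCH1-KD and 0.700 ± 0.272 FPKM in the negative control (SD, n = 3 each). Its log2 fold change was -0.05 ± 0.11 (SE), and it ranged from -0.15 to 0.08 with a library left out. The family median was -0.19, and -0.11 without GCH1-KD 1, where all 5 remained below 0. Per summed FPKM of core histone genes, H1 made 6.80%, 6.39% and 6.75% in GCH1-KD, against 7.45%, 6.77% and 7.37% in the negative control, with GCH1-KD 1 just above negative control 2.

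H2A and H2B form the dimers of the nucleosome, and their genes lie in pairs along the clusters. Of 17 H2A genes, 16 were below 0 (median -0.09), and 7 without GCH1-KD 1 (median 0.01). The most abundant of all, Hist2h2aa2, was at 194.2, 232.3 and 230.7 FPKM in GCH1-KD, against 253.4, 239.7 and 268.1 FPKM in the negative control, without overlap (-0.21 ± 0.08, limma adjusted p = 0.385; -0.13 without GCH1-KD 1). All of its 100-base windows also occur in the read-through gene Gm20634, so its value depends on how shared reads were divided. Hist2h2aa1, Hist2h2aa2, Hist2h3c1, Hist2h3c2 and Gm20634 were also summed after multiplying back by length in kilobases. They gave 353.3, 379 and 353 in GCH1-KD, against 456.6, 372.1 and 487.1 in the negative control. In that sum GCH1-KD 2 lay above negative control 2, so the groups overlapped. Hist1h2ak averaged 152.9 ± 14.3 FPKM in GCH1-KD and 160.6 ± 15.96 FPKM in the negative control (SD, n = 3 each). Hist1h2af averaged 120.8 ± 15.6 FPKM in GCH1-KD and 136.8 ± 10.9 FPKM in the negative control. The groups overlapped in both. Of 17 H2B genes, 12 were below 0 (median -0.05), and 5 without GCH1-KD 1 (median 0.06). Hist2h2bb averaged 115.2 ± 13.3 FPKM in GCH1-KD and 129.7 ± 13.3 FPKM in the negative control. Hist1h2bn averaged 115.7 ± 16.3 FPKM in GCH1-KD and 119.9 ± 3.58 FPKM in the negative control. Hist1h2bj averaged 95.2 ± 13.4 FPKM in GCH1-KD and 98.1 ± 3.87 FPKM in the negative control. The groups overlapped in all 3, and in the last pair of genes the GCH1-KD SD was the larger.

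Hist2h2be was the H2B gene with the smallest p and, unlike 52 of the 64, was not lowest in GCH1-KD 1. It was at 6.29, 5.78 and 6.58 FPKM in GCH1-KD, against 7.39, 8.62 and 7.40 FPKM in the negative control. The groups did not overlap, and the log2 fold change was -0.28 ± 0.07 (SE, limma adjusted p = 0.292). Its annotated transcript is 2620 bases long, runs 2192 bases past the stop codon, holds no stem-loop by this search and ends with a poly(A) signal.

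H3 and H4 form the tetramer at the centre of the nucleosome. The H3 genes lay below 0, while the H4 genes were split around 0. All 12 H3 genes were below 0 (median -0.18), and 8 without GCH1-KD 1 (median -0.04). Of 13 H4 genes, 6 were below 0 (median 0.02), and 3 without GCH1-KD 1 (median 0.08). The difference between the families was not tested. Hist2h3b was at 128.5, 172.8 and 156.8 FPKM in GCH1-KD, against 166.4, 166.9 and 183.4 FPKM in the negative control, with GCH1-KD 2 above 2 of the controls. Hist1h3i averaged 106.6 ± 15.3 FPKM in GCH1-KD and 121.6 ± 8.55 FPKM in the negative control (SD, n = 3 each). Hist1h3b averaged 96.4 ± 14.7 FPKM in GCH1-KD and 99.0 ± 6.67 FPKM in the negative control. The groups overlapped in all 3 H3 genes. Among the H4 genes, Hist1h4f averaged 163.5 ± 22.7 FPKM in GCH1-KD and 165.6 ± 15.5 FPKM in the negative control. Hist1h4k averaged 160.8 ± 20.4 FPKM in GCH1-KD and 157.9 ± 11.3 FPKM in the negative control. Hist1h4n averaged 136.1 ± 14.5 FPKM in GCH1-KD and 140.6 ± 5.196 FPKM in the negative control. These 3 overlapped too, with means that differed by less than the GCH1-KD SD.

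Hist1h4i stood apart from the other H4 genes. It was at 12.9, 16.5 and 14.5 FPKM in GCH1-KD, against 18.3, 18.4 and 18.0 FPKM in the negative control, and the groups did not overlap. The log2 fold change was -0.31 ± 0.08 (SE, limma adjusted p = 0.295). Its stem-loop, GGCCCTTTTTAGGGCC, is shared only with Hist2h4 among these genes, its model runs 330 bases past it, and it ends with a poly(A) signal. Hist2h4 was at 20.4, 25.0 and 19.9 FPKM in GCH1-KD, against 24.05, 21.4 and 24.9 FPKM in the negative control, and overlapped.

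**Figure D4:**
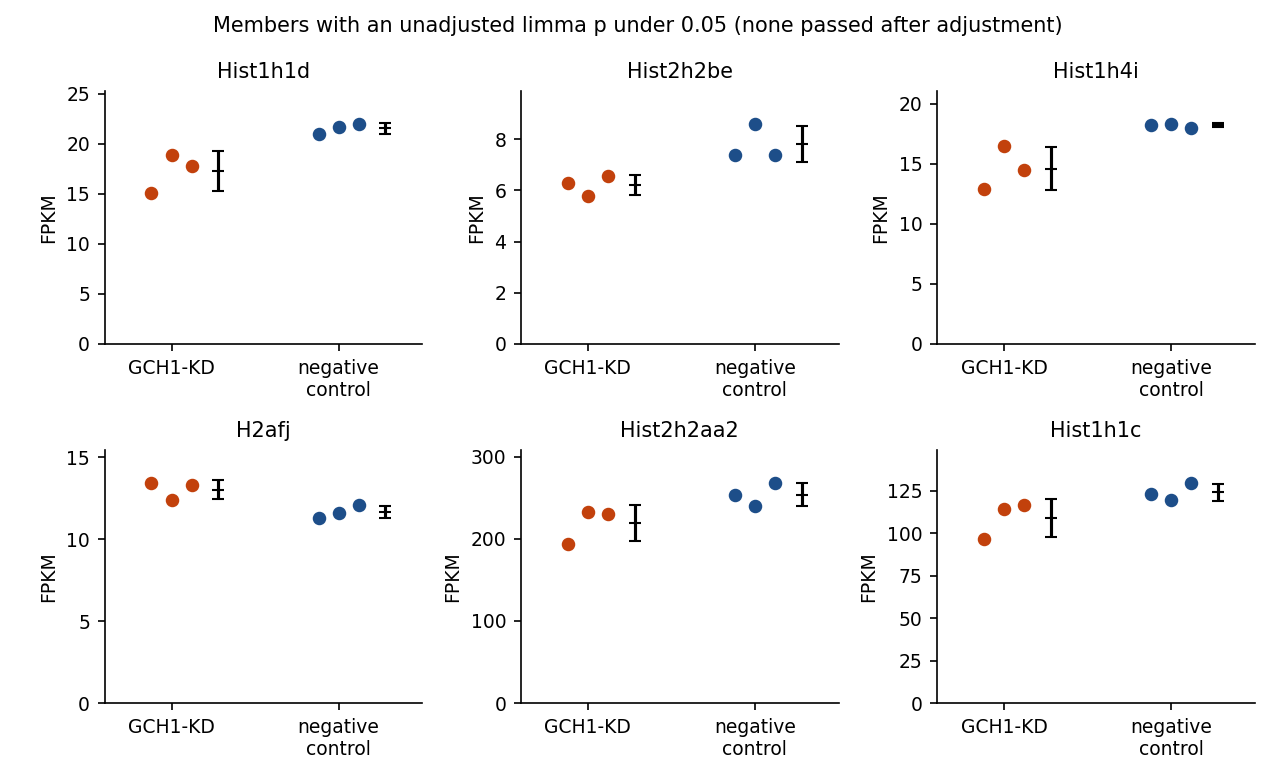
FPKM (y axis) in the 3 GCH1-KD and 3 negative control libraries of the 6 histone genes with an unadjusted limma p under 0.05. Points are libraries, and the bars beside them are the mean and SD. The groups do not overlap in any of the 6, and H2afj alone is higher in GCH1-KD.

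The variants are single genes whose proteins replace core histones at particular places. H2afj, an H2A variant, was at 13.4, 12.4 and 13.3 FPKM in GCH1-KD, against 11.3, 11.6 and 12.1 FPKM in the negative control. It was the only one of the 8 whose groups did not overlap (0.15 ± 0.05, limma adjusted p = 0.36). The gene lies at chr6:136808244-136810074 on GRCm38, next to Hist4h4 at chr6:136801553-136804415. Hist4h4 was at 2.03, 2.09 and 1.72 FPKM in GCH1-KD, against 1.9998, 1.82 and 1.52 FPKM in the negative control, with overlap. H2afx, whose phosphorylated protein marks DNA breaks, was at 44.4, 54.4 and 51.1 FPKM in GCH1-KD, against 52.9, 53.5 and 57.3 FPKM in the negative control (-0.13 ± 0.08). It was lowest in GCH1-KD 1 and highest in negative control 3, as H1f0 was too, and the log2 fold change was -0.05 without GCH1-KD 1.

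H2A.Z is encoded by H2afz and H2afv and sits at promoters and other regulatory sites. H2afz was at 37.5, 40.1 and 42.3 FPKM in GCH1-KD, against 40.2, 40.2 and 38.2 FPKM in the negative control (0.01 ± 0.05). H2afv was at 14.2, 15.97 and 14.1 FPKM in GCH1-KD, against 13.98, 15.03 and 15.3 FPKM in the negative control (-0.00 ± 0.06). In both genes GCH1-KD and control libraries were mixed in rank. H2afy, the macroH2A1 gene, was at 15.2, 15.6 and 16.5 FPKM in GCH1-KD, against 15.9, 15.5 and 16.1 FPKM in the negative control (-0.01 ± 0.04). All 3 genes overlapped between groups and had fold changes smaller than their SE.

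H3.3, the replacement H3, is encoded by H3f3a and H3f3b. H3f3a was the most abundant variant gene, at 71.2, 60.6 and 64.2 FPKM in GCH1-KD, against 74.5, 59.9 and 76.6 FPKM in the negative control (-0.10 ± 0.10). H3f3b was at 36.7, 38.5 and 39.1 FPKM in GCH1-KD, against 37.5, 40.4 and 38.5 FPKM in the negative control (-0.03 ± 0.04). H1f0, the linker histone of cells that have left the cycle, was at 18.0, 18.1 and 20.0 FPKM in GCH1-KD, against 19.3, 20.4 and 22.9 FPKM in the negative control (-0.15 ± 0.07, limma adjusted p = 0.494). GCH1-KD 3 lay above negative control 1, so H1f0 overlapped.

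The 4 factors were weakly expressed, and the groups overlapped in all 4. Slbp was at 3.61, 4.38 and 3.97 FPKM in GCH1-KD, against 3.92, 4.19 and 3.90 FPKM in the negative control (-0.01 ± 0.07). Npat was at 8.53, 8.66 and 7.47 FPKM in GCH1-KD, against 7.75, 8.45 and 7.84 FPKM in the negative control (0.03 ± 0.07). Lsm11 was at 3.46, 3.57 and 3.53 FPKM in GCH1-KD, against 3.11, 3.50 and 3.15 FPKM in the negative control (0.09 ± 0.06). Lsm10 was the most variable, at 6.66, 4.94 and 5.56 FPKM in GCH1-KD, against 3.98, 8.45 and 5.69 FPKM in the negative control (-0.03 ± 0.22).

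Other genes that act on histone mRNA and histone proteins were taken as lists. Of 44 measured genes for transcription, processing and decay of histone mRNA, none was called, 20 were below 0 and 24 above 0, and the median was 0.01. Those with the smallest p were Lsm5 (0.28 ± 0.09), of the LSM ring that binds the ends of decaying RNA, the spliceosomal Snrpe (0.35 ± 0.12), Ctif (-0.14 ± 0.06), which acts in cap-binding-complex translation, and the polyadenylation factor Fip1l1 (-0.09 ± 0.05). Their adjusted p ranged from 0.36 to 0.529. Of 44 measured genes of histone chaperones and variant deposition, none was called, 25 were below 0 and 19 above 0, and the median was -0.01. Those with the smallest p were Rbbp7 (0.17 ± 0.06), a histone-binding subunit of several chromatin complexes, the importin Ipo4 (-0.11 ± 0.04), the centromeric H3 variant Cenpa (-0.16 ± 0.06) and the ATPase Ruvbl2 (-0.11 ± 0.05), with adjusted p from 0.359 to 0.456. Cenpa was at 8.85, 8.81 and 8.999 FPKM in GCH1-KD, against 9.91, 11.04 and 9.28 FPKM in the negative control, without overlap. It was 1 of 7 genes of the 44 with every GCH1-KD library below every control, and 1 gene had every GCH1-KD library above. Over all genes these shares were 8.36% and 9.99%.

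Levels within the replication-dependent set ran from 0.665 FPKM (Hist1h1t, mean of 6 libraries) to 236.4 FPKM (Hist2h2aa2), with 17 genes at 100 FPKM or more and 8 under 10. Among the variants and linkers they ran from 12.4 FPKM (H2afj) to 67.8 FPKM (H3f3a). Levels also differed by annotated transcript model. The 22 genes whose model ended within 100 bases of the stem-loop had a median of 94.1 FPKM and a median length of 483.5 bases. The 21 whose model ran further had medians of 28.3 FPKM and 1261 bases, and the 21 without the motif had medians of 77.7 FPKM and 411 bases. FPKM divides by length, so it would be lowered by a model longer than the mRNA. The longest model is that of Hist1h1d, at 7425 bases, and where the mRNAs end in these cells was not tested. Multiplied back by length in kilobases, the medians were 48.2 for models ending near the stem-loop, 36.8 for those running past it and 36.8 for those without the motif. The comparison between groups uses the same model in every library. Median log2 fold changes were -0.05 for the models that ended near the stem-loop, -0.09 for those that ran past it and -0.07 for those without the motif.

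**Figure D5:**
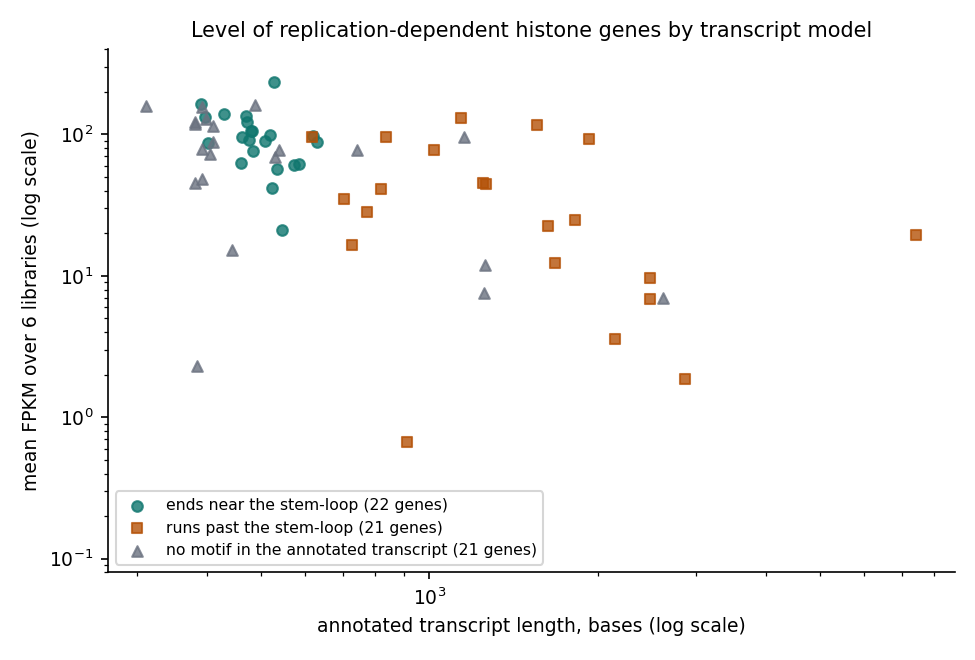
Mean FPKM over the 6 libraries (y axis, log scale) against annotated transcript length in bases (x axis, log scale) for the 64 replication-dependent genes, marked by whether the model ends within 100 bases of the stem-loop, runs past it or lacks the motif. Models that run past the stem-loop have the longest median length, 1261 bases, and a median of 28.3 FPKM, against 94.1 FPKM for those that end near it and 77.7 FPKM for those without the motif.

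The clusters lie on chromosome 13 (Hist1, 52 genes, chr13:21715763-23934156) and chromosome 3 (Hist2, 10 genes, chr3:96219865-96270132), with Hist3h2a on chromosome 11 and Hist4h4 on chromosome 6. The Hist1 genes summed to 3300, 4261 and 3941 FPKM in GCH1-KD, against 3878, 3934 and 4197 FPKM in the negative control. The Hist2 genes summed to 652.0, 887.4 and 823.7 FPKM in GCH1-KD, against 786.9, 867.2 and 954.5 FPKM in the negative control. GCH1-KD 1 was lowest in both clusters, and the groups overlapped in both. The Hist2 sum includes the near-identical copies Hist2h2aa1 and Hist2h3c1, so it depends on how shared reads were divided.

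Near-identical copies limited what single genes show. Of the 64 replication-dependent genes, 59 shared at least 1 window of 100 bases with another annotated gene, 25 shared at least 50% of their windows and 6 at least 90%. Hist2h2aa1 was at 3.81, 101.8 and 99.8 FPKM in GCH1-KD, against 0.0543, 108.9 and 54.1 FPKM in the negative control. Hist2h3c1 was at 44.4, 11.95 and 6.69 FPKM in GCH1-KD, against 14.4, 11.3 and 60.9 FPKM in the negative control. Gm20634, a read-through gene that overlaps both and holds 88.3% and 100% of their windows, was at 35.5, 29.5 and 28.9 FPKM in GCH1-KD, against 73.1, 27.9 and 38.7 FPKM in the negative control. Hist2h2aa1 was nearly at 0 in negative control 1, the library where Gm20634 was highest, and it was also low in GCH1-KD 1, where Gm20634 was not high. Multiplied back by length in kilobases, both genes together gave 107, 146.9 and 144 in GCH1-KD, against 216.2, 146.2 and 146.1 in the negative control. Hist1h2bq and Hist1h2br, which share 86.4% or more of their windows, were both highest in GCH1-KD 2 and negative control 2: Hist1h2bq was at 1.32, 16.3 and 7.02 FPKM in GCH1-KD, against 3.68, 13.9 and 3.33 FPKM in the negative control. In these 4 copies the SD within each group was larger than the difference between the means. Per library, 35 to 48 single-transcript replication-dependent genes were compared with other single-transcript genes within the same range of total aligned bases. FPKM times length fell within 0.1 of a whole number of aligned bases in 25.0% to 28.9% of these histone genes. The share was 73.4% to 75.1% in the other genes, and 20.0% by chance. Why it differed was not tested. Among the 39 genes that share under 50% of their windows, 29 were below 0 and the median was -0.07, and without GCH1-KD 1 the numbers were 18 and 0.01.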

How the data were processed

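RNA was measured in 6 BV2 libraries, 3 per group by the genotype label. In the deposited table each gene has 1 value in each library. The unit is unstated, and the values behave as FPKM computed by the authors. Per the submitters' processing notes, HISAT2, StringTie and edgeR were used, with the build hg38, although the identifiers are mouse Ensembl genes. Versions, annotation and strand setting were not given in the sources used here. Depth was estimated from the step of value times transcript length (the median over a gene's transcripts). The number of columns from outside the series was 0.

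Identifiers were matched without version to GENCODE M21 (GRCm38), 12300 of 12327. limma 3.58.1 (R 4.3.3, empirical Bayes with a mean-variance trend, no covariate) was run on log2(FPKM + 1) for the 12222 genes that reached 0.5 FPKM in 3 or more libraries, with Benjamini-Hochberg adjustment over all of them. Fold changes on that scale understate those of low genes. The fit was tested on simulated data. With 3 libraries against 3, an exact permutation test cannot go below 0.1, so none was run.

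Values are given for the factors, every variant and linker, the 3 replication-dependent genes of each family with the highest mean, any member with an unadjusted p under 0.05, and the 4 genes of each list with the smallest p. Hist2h4, Hist4h4, Hist1h1t and the near-identical copies were chosen after their values were seen. Members and lists were chosen with earlier results of these data known. The histone mRNA list held 46 symbols, 2 of them older names of genes also on it.

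Alternatives were a replicate block, removal of a loess trend on GC content and length (span 0.3), both together, pseudocounts of 0.1 and 0.5, each library left out, quantile or median-of-ratios scaling, no filter or one at a mean of 5 FPKM, moderation that was robust, and moderation without the trend. For the ratio, geometric means, leaving out the most abundant gene of each class and keeping only genes with the motif were tried. Leaving out genes that share at least 50% of their windows was added after seeing the data. Python 3.11.15 was used outside R.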

Additional observations from a re-analysis of the deposited data

How the results depend on the processing

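Over all genes, 10 were called in the fit as reported, 0 with the replicate block and 0 with the block and the GC content and length trend removed, against 1380 at an unadjusted p under 0.05 in the fit as reported. With a library left out the number ranged from 6 to 18, and in the other alternatives from 7 to 11. The replicate numbers are a shared number only: same-numbered libraries correlated at 0.095, 0.0593 and 0.0936 in their deviations from the group means, none above 0.1, although each library correlated best with its own number, which is a hint from the data and not the design. No member was called under any of the 17 alternatives, and the lowest adjusted p of a member was 0.2288. The median of the replication-dependent genes ranged from -0.15 (without GCH1-KD 2) to 0.01 (without GCH1-KD 1) with a library left out, and from -0.08 to -0.07 in the other alternatives. The median of the variants and linkers ranged from -0.04 to 0.01 with a library left out. The ratio's log2 difference ranged from -0.11 to 0.07 with a library left out, and was -0.00 without genes sharing 50% of their windows. Among the 30 members named by rule, 30 of 508 values under an alternative had the other sign, 10 of them without GCH1-KD 1, and none of those members was called. Genes chosen after their values were seen are not among these 30. With a library left out, the sign changed in Hist1h1t, Hist2h2aa1, Hist2h3c1, Hist1h2bq and Hist1h2br. It stayed the same in Hist2h4 and Hist4h4. Each group has 3 libraries, the unit and the division of shared reads are not stated, and genes under the deposited table's own lower limit were not analysed here.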
